A study of Mus musculus with 4 samples.

Results

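The 9 genes described here encode growth factors that immune cells can bring to a healing fracture, and they were read in single cells of the fracture callus, the repair tissue that bridges a broken bone. They are Vegfa, Osm, Hbegf, Areg, Tgfb1, Igf1, Pdgfb, Nrg1 and Bmp2, taken by symbol from the 32285 genes of the deposited tables, and each symbol matched 1 row. The libraries came from tibial calluses of male C57BL/6J mice aged 20 months, collected on day 7 after treatment. One group received a microgel with adenosine (libraries adenosine 1 and adenosine 2) and the other a control microgel (control 1 and control 2). The series title places the comparison in the question of whether adenosine signalling can promote fracture healing at old age. Young or untreated mice are not among the 4 libraries analysed, and the labels name the tissue as bone marrow while their titles name fracture callus. Nothing in them tells whether the paired libraries of each group stem from different mice, and the p-values therefore measure a spread between libraries that may be technical.

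Callus growth factors act in sequence. Vegfa drives the growth of blood vessels into cartilage, and Pdgfb, Igf1 and Tgfb1 recruit and expand mesenchymal cells that form cartilage and bone. Bmp2 starts bone formation, oncostatin M (Osm) pushes stromal cells towards osteoblasts, and Hbegf, Areg and Nrg1 signal through receptors of the EGF receptor family. Macrophages are a known source of several of them in bone repair.

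After filtering, 31330 cells remained, with 8217 and 8136 in adenosine 1 and 2 and 8695 and 6282 in control 1 and 2. Library totals ran from 32277757 to 68117846 UMIs (unique molecular identifiers, 1 per captured RNA molecule), and the median cell held 2996 to 4725. Levels are given as CPM, the gene's UMIs scaled by the sum of all UMIs in the same cells. Cells were grouped into 27 clusters without the 9 genes, and 26 clusters were named from marker genes, so a class name stands for cells like that type. Neutrophils, with 5698 and 4493 cells in the adenosine libraries and 6040 and 4844 in the control libraries, were the main class. Clusters of osteoclasts, chondrocytes, endothelial cells and muscle were not found, and only 42 cells were named mesenchymal. Control 2 stood apart. Of its mature neutrophils, 90.3% lay in 2 clusters led by Cxcl2 and Acod1, against 4.68% and 1.17% in adenosine 1 and 2 and 3.77% in control 1. Its neutrophils also had the highest summed level of 11 immediate-early genes, with 2053 and 1612 CPM in adenosine 1 and 2, 1833 in control 1 and 6768 in control 2. Control 2 held 901 of the 1194 macrophages and 21 of the 1695 granulocyte-monocyte progenitors. Adenosine 2 stood apart in other clusters. It held 772 of the 774 cells of 1 T or NK cluster and 300 of the 320 cells of another. Of a mature neutrophil cluster with Oasl2 among its leading genes it held 1753 of 2211 cells, against 58 in adenosine 1 and 319 and 81 in control 1 and 2. Between 13 and 28 cell barcodes were shared by any 2 libraries, at most 0.298% of a library.

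**Figure D1:**
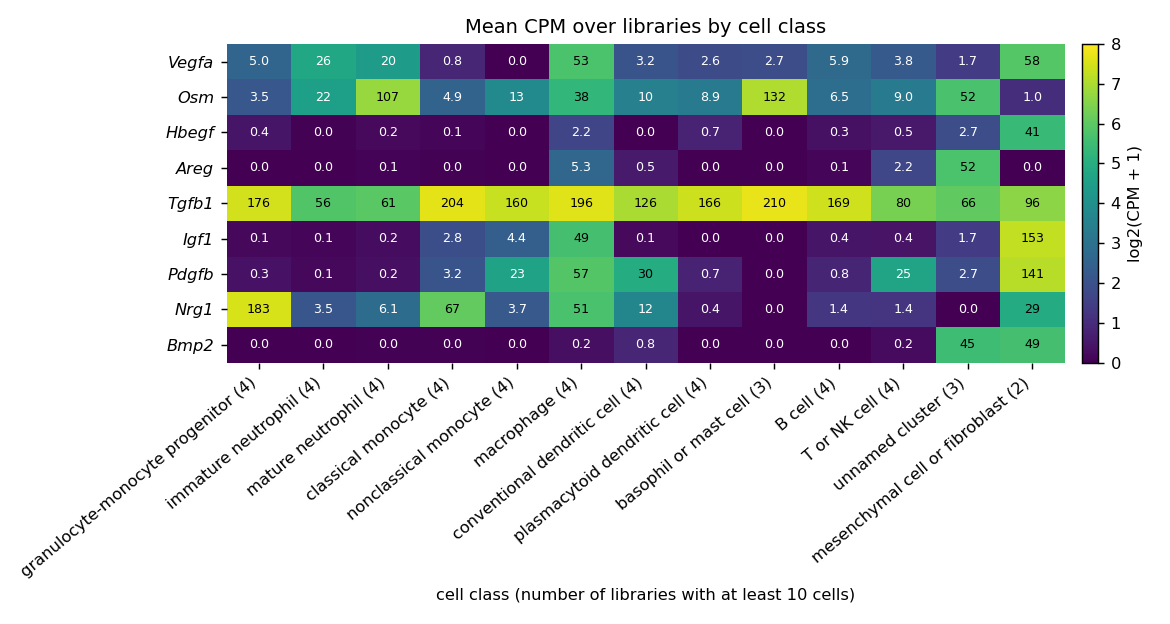
Heat map of the 9 genes (rows) in 12 named cell classes and the unnamed cluster (columns); colour is log2(CPM + 1), the printed number is the mean CPM over libraries with at least 10 cells of the class, and the number of such libraries stands after each class name. Plasma cells and erythroid cells are not shown. Tgfb1 is above 50 CPM in every column shown, and the other genes each peak in a few columns. Colours are for comparison along a row.

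Levels of the 9 genes differed widely between cell classes. Tgfb1 was present across most of the immune compartment, Osm in mature neutrophils and basophils or mast cells, Vegfa in neutrophils and macrophages, Igf1 and Pdgfb in macrophages, and Nrg1 in myeloid progenitors and monocytes. Hbegf, Areg and Bmp2 were near the limit of detection in nearly every class. Breadth was counted over the 11 classes with at least 20 cells in 3 or more libraries, as the number in which every such library held more than 3 UMIs of the gene, a measure chosen after the values were seen. Tgfb1 passed in 11 classes, Osm and Nrg1 in 5, Vegfa and Pdgfb in 2, Igf1 in 1, and Hbegf, Areg and Bmp2 in 0. Classes were drawn from the same cells, so differences between them are described without a test.

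Tgfb1 encodes transforming growth factor beta 1, a latent protein that induces cartilage and matrix formation once released. In the sum of all cells it stood at 113 and 124 CPM in adenosine 1 and 2, against 122 and 134 CPM in control 1 and 2. Its spread over the 4 libraries was thus narrow, and the groups overlapped. By class, basophils or mast cells led with a mean of 209.9 ± 32.8 CPM (SD over the 3 libraries with at least 20 such cells). Classical monocytes followed at 204 ± 7.31, macrophages at 196 ± 23.5 and progenitors at 176 ± 23.6 CPM (SD, n = 4 libraries each). Neighbours in that order did not differ beyond their ranges. Immature neutrophils had 59.3 and 57.2 CPM in adenosine 1 and 2 and 52.2 and 55.8 CPM in control 1 and 2, the low end of the 11 classes. Plasma cells, too few to be among these classes, had little Tgfb1. In adenosine 1, 77 plasma cells held 0.272% of the Tgfb1 UMIs (16 UMIs) and 3.27% of all UMIs. Mature neutrophils had 56.2 and 47.3 CPM in adenosine 1 and 2, against 46.2 and 93.7 CPM in control 1 and 2. In the Cxcl2/Acod1 clusters the Tgfb1 level was 175 and 96.0 CPM in adenosine 1 and 2 and 109 and 100.3 CPM in control 1 and 2, while the other mature clusters had 50.8 and 46.7 CPM in the adenosine libraries and 43.9 and 42.9 CPM in the control libraries. The Cxcl2/Acod1 clusters were higher in each of the 4 libraries, a grouping made after the values were seen. In adenosine 2 they held 8 Tgfb1 UMIs in 35 cells.

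Upstream sequence is shown for Tgfb1, the gene found in the most classes, and for Igf1, found above 3 UMIs in every library in 1 class. Each run is the 250 bases before the start of the gene in RefSeq, read on the plus strand of build GRCm38.p6 and written 5′ to 3′ with each CG dinucleotide in capitals. The Tgfb1 window is chr7:25686752-25687001 and the Igf1 window is chr10:87860861-87861110.
Tgfb1: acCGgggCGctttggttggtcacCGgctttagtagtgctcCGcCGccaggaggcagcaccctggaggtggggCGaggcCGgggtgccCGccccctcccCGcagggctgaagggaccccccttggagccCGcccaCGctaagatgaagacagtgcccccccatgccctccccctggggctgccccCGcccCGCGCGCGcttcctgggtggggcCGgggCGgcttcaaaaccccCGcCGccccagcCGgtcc
Igf1: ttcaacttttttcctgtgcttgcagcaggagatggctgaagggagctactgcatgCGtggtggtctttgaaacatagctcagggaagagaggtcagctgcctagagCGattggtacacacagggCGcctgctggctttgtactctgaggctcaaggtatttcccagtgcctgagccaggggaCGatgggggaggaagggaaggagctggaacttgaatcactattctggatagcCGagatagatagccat
CG (searched as the letters CG, which read the same on both strands) occurred 21 times before Tgfb1, and 16.3% of 32851 RefSeq windows of that length held as many or more. It occurred 5 times before Igf1, and 55.6% of windows held as many or more. Before Areg, which passed in 0 classes, it occurred 15 times, and 27.3% of windows held as many or more. Before the listed starts of Vegfa, which passed in 2 classes, it occurred 11 and 7 times (35.6% and 46.3% of windows). The counts describe these windows only, and a link to the number of classes was not tested.

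Vegfa, the main driver of new blood vessels, had 17.6 and 6.02 CPM in all cells of adenosine 1 and 2, against 12.8 and 47.2 CPM in control 1 and 2. Control 2 was the highest and the groups overlapped. Neutrophils and macrophages held most of it. Immature neutrophils had 37.6 and 20.2 CPM in adenosine 1 and 2, against 26.3 and 19.7 CPM in control 1 and 2. Macrophages had 54.6 and 7.17 CPM in adenosine 1 and 2, against 61.1 and 87.6 CPM in control 1 and 2, where the adenosine 2 value rests on 3 UMIs in 41 cells. Neutrophils of both stages held 63.0%, 84.0% and 72.6% of all Vegfa UMIs in adenosine 1, adenosine 2 and control 1, while macrophages held 55.2% in control 2. Granulocyte-monocyte progenitors held 15.2%, 10.6% and 9.72% in adenosine 1, adenosine 2 and control 1, and 0% in control 2. Macrophages held 9.66%, 0.857% and 9.87% in adenosine 1, adenosine 2 and control 1. Classical monocytes were close to empty, at a mean of 0.828 ± 0.532 CPM (SD, n = 4 libraries).

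Between an earlier and a later granulocyte cluster, Vegfa and Osm had opposite orders. The immature cluster led by Camp, Ngp and Elane had 46.4 and 24.1 CPM of Vegfa in adenosine 1 and 2 and 35.1 and 23.1 CPM in control 1 and 2. The later cluster led by Mmp8 and Retnlg had 12.1 and 5.60 CPM of Vegfa in the adenosine libraries and 13.1 and 13.5 CPM in the control libraries. The earlier cluster was higher in each of the 4 libraries. For Osm, an interleukin-6 family cytokine, the earlier cluster had 11.2 and 11.4 CPM in adenosine 1 and 2 and 14.5 and 13.2 CPM in control 1 and 2, against 76.7 and 62.8 CPM in the adenosine libraries and 65.7 and 40.5 CPM in the control libraries for the later one. Here the later cluster was higher in all 4 libraries. The order did not extend to the Elane/Mpo progenitor cluster, where both genes were below the Camp cluster, with 27.2 and 13.7 CPM of Vegfa in adenosine 1 and 2 and 20.2 CPM in control 1. Osm there was 3.80 and 3.92 CPM in adenosine 1 and 2 and 2.95 CPM in control 1, and control 2 had 2 such cells. Summed over the Cxcl2/Acod1 clusters, Vegfa stood at 105 and 48.0 CPM in adenosine 1 and 2 and at 61.0 and 43.5 CPM in control 1 and 2. The other mature clusters had 14.3 and 9.03 CPM of Vegfa in the adenosine libraries and 12.8 and 9.19 CPM in the control libraries. Vegfa was therefore higher in the Cxcl2/Acod1 clusters of each library, though adenosine 2 had 4 Vegfa UMIs in 35 such cells. Osm followed in 3 libraries, with 153 and 60.0 CPM in the Cxcl2/Acod1 clusters of adenosine 1 and 2 and 321 and 221 CPM in those of control 1 and 2. In the other mature clusters Osm was 76.8 and 60.2 CPM in adenosine 1 and 2 and 78.8 and 44.1 CPM in control 1 and 2. In adenosine 2 the 2 Osm values were alike, and there the Cxcl2/Acod1 clusters held 35 cells with 5 Osm UMIs. Control 2 was not the highest of the 4 libraries for either gene within these clusters.

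**Figure D2:**
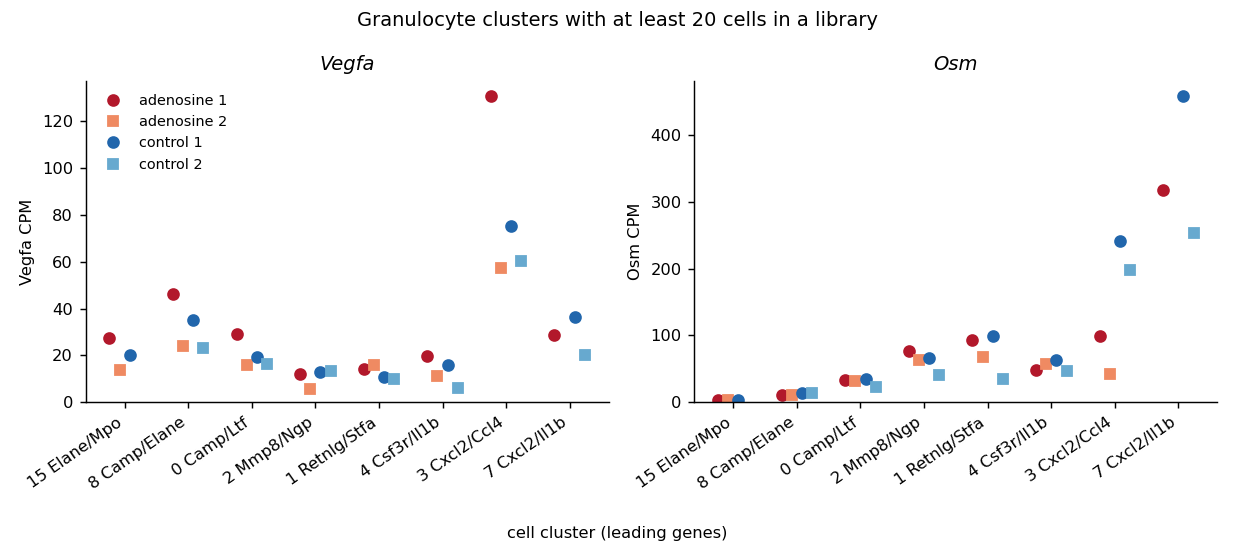
Vegfa (left) and Osm (right) in CPM (linear axis from 0) in 8 granulocyte clusters ordered from Elane/Mpo progenitors to mature and Cxcl2-expressing neutrophils; each point is 1 library with at least 20 cells, adenosine in red tones and control in blue. Vegfa is higher in the Camp/Elane cluster than in the Mmp8/Ngp cluster, Osm is lower there, and both are high in the cluster led by Cxcl2 and Ccl4.

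Osm and Nrg1 were the members whose groups did not overlap in all cells, and Osm stood at 25.0 and 16.0 CPM in adenosine 1 and 2, against 29.7 and 115 CPM in control 1 and 2. Both adenosine libraries lay below both control libraries, as did 10.1% of the 16379 genes tested. Most of the distance came from control 2. Mature neutrophils had 80.2 and 60.2 CPM of Osm in adenosine 1 and 2, against 87.3 and 201 CPM in control 1 and 2. Basophils or mast cells had 132 and 148 CPM in adenosine 1 and 2 and 116 CPM in control 1, where control 2 held only 4 such cells. Their range overlapped that of mature neutrophils. Macrophages had 21.5 and 23.9 CPM in adenosine 1 and 2, against 57.3 and 49.8 CPM in control 1 and 2, so the groups did not overlap there. That gap rests on 35 and 10 Osm UMIs in the adenosine libraries and 59 and 434 in the control libraries. Macrophages were not tested as a class of their own, and the share of genes with that pattern was not counted for them. It was 7.98% in monocyte-macrophages, the tested class that holds them. B cells, not known for Osm, had 7.50 and 5.39 CPM in adenosine 1 and 2 and 7.68 and 5.41 CPM in control 1 and 2, and levels at or under these are read as background here. Classical monocytes, progenitors and plasmacytoid dendritic cells lay within or below that level in most libraries.

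Igf1, insulin-like growth factor 1, had its highest mean level among immune classes in macrophages. Macrophages held 173 and 5 Igf1 UMIs in adenosine 1 and 2, equal to 106 and 11.9 CPM, and 60 and 162 UMIs in control 1 and 2, equal to 58.2 and 18.6 CPM. The groups overlapped widely. Classical monocytes, the next class, had 6.34 and 1.66 CPM of Igf1 in adenosine 1 and 2, against 1.21 and 2.05 CPM in control 1 and 2. Mesenchymal cells were also rich in Igf1, with 159 CPM in adenosine 1 (27 cells) and 146 CPM in control 2 (12 cells). Adenosine 2 and control 1 held only 1 and 2 mesenchymal cells, with no Igf1 UMI.

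Pdgfb, the B chain of platelet-derived growth factor and a mitogen for pericytes and stromal cells, was the member whose macrophage level varied least after Tgfb1. Macrophages had 69.3 and 47.8 CPM of Pdgfb in adenosine 1 and 2, against 53.4 and 55.9 CPM in control 1 and 2. The control values lay between the adenosine values. Conventional dendritic cells had 37.1 and 8.24 CPM in adenosine 1 and 2, against 29.2 and 44.8 CPM in control 1 and 2. The cluster led by the natural killer genes Gzma and Ncr1 had 74.2 and 55.3 CPM in adenosine 1 and 2 and 56.4 CPM in control 1, while control 2 held 8 of its cells and no Pdgfb UMI. T or NK cells as a whole held 77.6% of all Pdgfb UMIs in adenosine 2, where that class had 1220 cells. The same share was 18.1% in adenosine 1, 19.6% in control 1 and 0.470% in control 2. Macrophages held 76.3% in control 2. The few cells named mesenchymal had 62.8 CPM of Pdgfb in adenosine 1 and 219 CPM in control 2. These cells also held 149 of the 261 UMIs of Kdr, a receptor of endothelium, and may not be of 1 type. Among neutrophils the gene was nearly absent, with at most 0.25 CPM in any library.

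**Figure D3:**
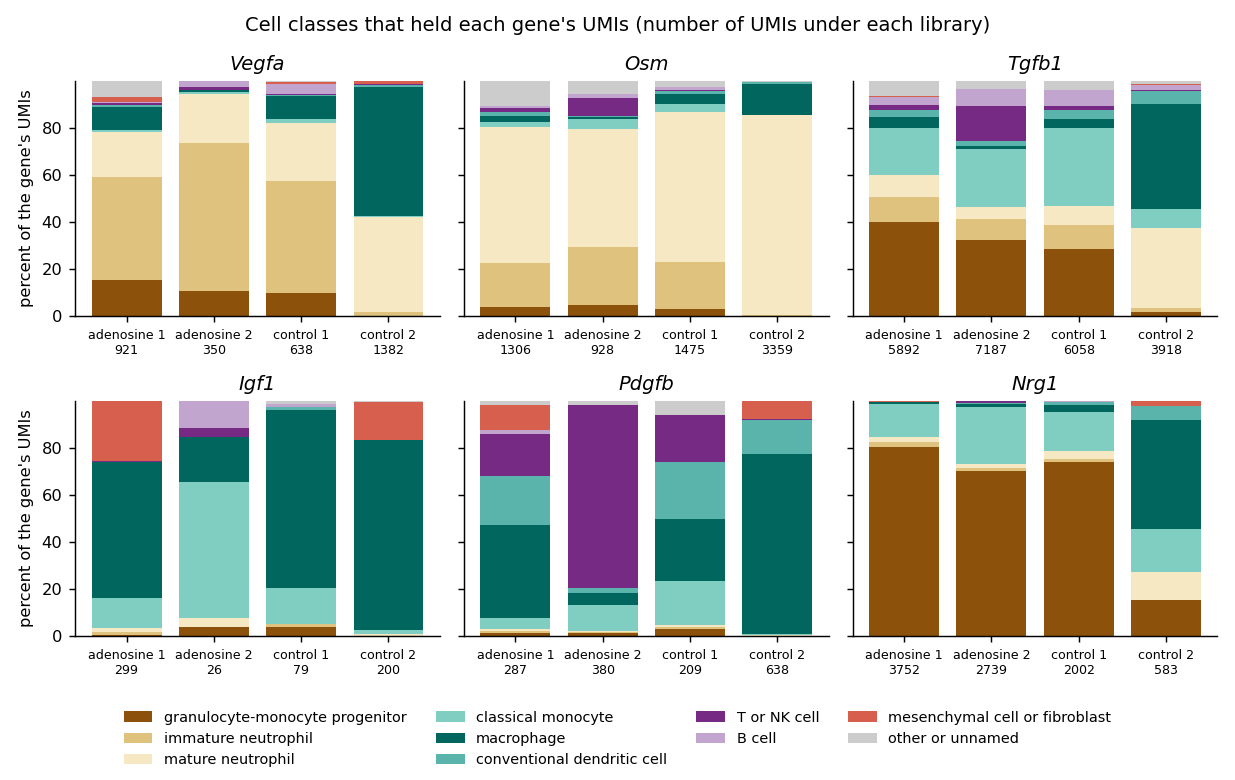
Share of each gene's UMIs (percent, vertical axis) by cell class in each library for the 6 genes with the most UMIs, adenosine libraries to the left of control libraries, with the number of UMIs under each bar. The source of Vegfa, Pdgfb and Nrg1 differs between libraries, and macrophages hold the largest share in control 2 for these 3 genes, for Igf1 and for Tgfb1.

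Nrg1 encodes neuregulin 1, a ligand of the ErbB receptors. In all cells it had 71.7 and 47.1 CPM in adenosine 1 and 2, against 40.3 and 19.9 CPM in control 1 and 2. Both adenosine libraries lay above both control libraries, as did 27.4% of the genes tested. Granulocyte-monocyte progenitors held most of these UMIs, 80.6% and 70.1% in adenosine 1 and 2 and 74.0% in control 1, and in control 2, where only 21 such cells were found, 15.1%. Per progenitor UMI the level was 225 and 164 CPM in adenosine 1 and 2, against 158 and 186 CPM in control 1 and 2, and the groups overlapped. A bulk sum cannot tell fewer progenitors from less Nrg1 per progenitor, but here the class values can be read beside it. Within the progenitors, the cluster led by Prtn3 and F13a1 had 327 and 203 CPM in adenosine 1 and 2 and 207 CPM in control 1. The cluster led by Elane and Mpo had 38.8 and 20.4 CPM in adenosine 1 and 2 and 13.9 CPM in control 1. The Prtn3/F13a1 cluster was higher in each library with at least 20 cells of both. It held 2839 and 1868 Nrg1 UMIs in adenosine 1 and 2 and 1449 and 88 in control 1 and 2, against 184 and 52 in the adenosine libraries and 33 and 0 in the control libraries for the Elane/Mpo cluster. The progenitor share therefore rests on the name given to the Prtn3/F13a1 cluster, whose marker score was 3.51 for progenitors and 3.08 for classical monocytes.

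**Figure D4:**
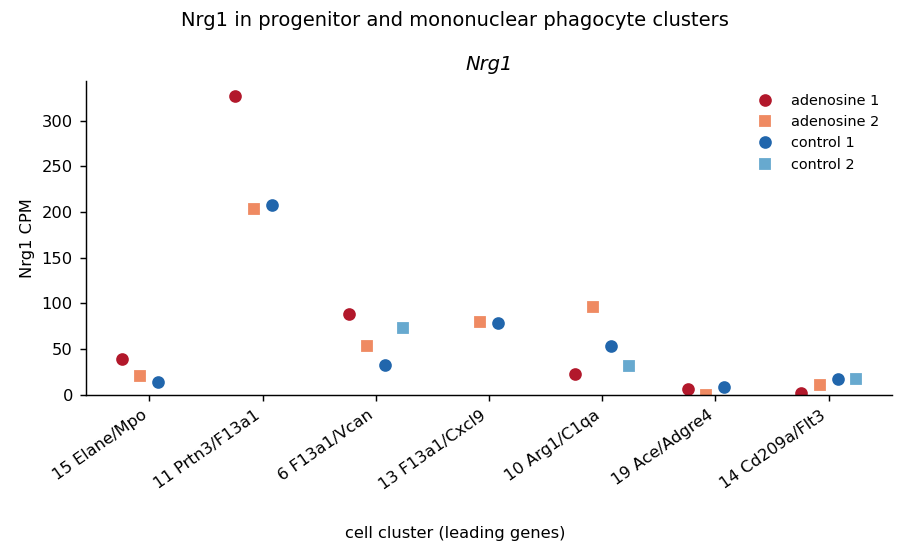
Nrg1 in CPM (linear axis from 0) in progenitor clusters 15 and 11, monocyte clusters 6, 13 and 19, the macrophage cluster 10 and the dendritic cluster 14; each point is 1 library with at least 20 cells of the cluster, adenosine in red tones and control in blue. The Prtn3/F13a1 progenitors stand above all other clusters, and in the dendritic cluster both adenosine points lie below both control points.

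Monocyte-macrophages, the sum of classical monocytes, nonclassical monocytes and macrophages, had 72.7 and 72.3 CPM of Nrg1 in adenosine 1 and 2, against 34.9 and 36.7 CPM in control 1 and 2. The groups did not overlap, and 12.3% of the 12130 genes tested in that class had both adenosine libraries above both control libraries. The fitted change was 0.97 on the log2 scale (SE 0.25, n = 2 libraries each), with an unadjusted p of 0.00993 and an adjusted p of 0.999 in edgeR's quasi-likelihood test, higher in 2 of 2 adenosine libraries. Inside the class the picture was mixed. Classical monocytes had 87.8 and 73.3 CPM in adenosine 1 and 2, against 34.0 and 71.7 CPM in control 1 and 2. Macrophages had 23.3 and 95.6 CPM in adenosine 1 and 2, against 53.4 and 31.1 CPM in control 1 and 2. The composition of the class also differed. Control 2 had 901 macrophages and 147 classical monocytes, adenosine 1 and 2 had 149 and 41 macrophages with 598 and 853 classical monocytes, and control 1 had 103 and 1088. In adenosine 2, 71.4% of classical monocytes lay in a cluster with Cxcl9 and MHC class II genes that held at most 3.40% in the other libraries. Where the Prtn3/F13a1 progenitors were counted with the monocyte-macrophages, a choice made after the values were seen, Nrg1 was 207 and 136 CPM in adenosine 1 and 2, against 101 and 43.4 CPM in control 1 and 2. Dendritic cells went the other way, with 2.47 and 10.3 CPM in adenosine 1 and 2, against 17.2 and 16.9 CPM in control 1 and 2 (4, 10, 30 and 35 UMIs in that order). The fitted change there was -1.62 (SE 0.67, n = 2 libraries each, adjusted p = 0.999 in edgeR), but -0.79 without adenosine 1, -2.89 without adenosine 2, -0.91 with doublets kept and -0.75 with cells chosen 1 by 1 from their markers. Of the 9727 genes tested, 8.28% had both adenosine libraries below both control libraries.

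Hbegf and Areg, both ligands of the EGF receptor that are shed from the cell surface, were rare. Areg had 15 and 22 UMIs in 6 and 9 cells of adenosine 1 and 2, against 5 and 125 UMIs in 3 and 20 cells of control 1 and 2. A single cell held up to 43 of them. Macrophages held 11 and 0 Areg UMIs in adenosine 1 and 2, against 1 and 116 in control 1 and 2. Another 17 and 4 UMIs, in adenosine 2 and control 1, lay in the unnamed cluster of 85 cells, whose leading genes include Gata3 and Il1rl1 and which held almost no Cd3e or Trac. That cluster had 21 and 26 cells in adenosine 1 and 2 and 38 and 0 in control 1 and 2. Hbegf had 26 and 13 UMIs in all cells of adenosine 1 and 2, against 19 and 29 in control 1 and 2, spread over progenitors, macrophages, T cells, mesenchymal cells and, with 7 of the 26 in adenosine 1, erythroid cells. No class had more than 3 Hbegf UMIs in every library.

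Bmp2, the bone morphogenetic protein that starts osteoblast formation, came mainly from 2 small sources, except in adenosine 2. It had 50 and 4 UMIs in 8 and 4 cells of adenosine 1 and 2, against 22 and 2 UMIs in 6 and 1 cells of control 1 and 2. Mesenchymal cells held 42 and 1 of them in adenosine 1 and 2, against 2 and 2 in control 1 and 2. The unnamed cluster held 5 and 1 in adenosine 1 and 2 and 17 in control 1, the last in 2 cells. A single cell held 24 of the 50 UMIs in adenosine 1, and another held 16 of the 22 in control 1. Conventional dendritic cells held 2 of the 50 in adenosine 1 and 2 of the 4 in adenosine 2. At most 8 cells of a library carried the gene.

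Arg1-expressing macrophages carried the growth factors unevenly. Cells with at least 2 Arg1 UMIs (arginase 1, an enzyme of alternatively activated macrophages) were set beside macrophages with no Arg1 UMI, a division made after the values were seen; Arg1 is itself one of the 10 macrophage markers. Vegfa was 131 and 16.9 CPM in the Arg1 cells of adenosine 1 and 2 and 186 and 158 CPM in those of control 1 and 2. In macrophages without Arg1 it was 24.8 and 0 CPM in adenosine 1 and 2 and 30.1 and 38.0 CPM in control 1 and 2. Vegfa was higher in the Arg1 cells of each library, though adenosine 2 had 2 Vegfa UMIs in 11 such cells. Areg was 21.5 and 0 CPM in the Arg1 cells of adenosine 1 and 2, against 5.04 and 31.0 CPM in those of control 1 and 2. Without Arg1 no library passed 1.52 CPM. Nrg1 had the opposite order in 3 libraries, with 2.15 and 25.3 CPM in the Arg1 cells of adenosine 1 and 2 and 65.5 and 12.2 CPM in those of control 1 and 2, against 32.8 and 71.9 CPM without Arg1 in the adenosine libraries and 52.7 and 46.7 CPM in the control libraries. Pdgfb was 70.9 and 118 CPM in the Arg1 cells of adenosine 1 and 2 and 70.6 and 56.7 CPM in those of control 1 and 2. Without Arg1 it was 70.1 and 15.1 CPM in the adenosine libraries and 38.9 and 53.8 CPM in the control libraries. The Arg1 cells were higher in all 4 libraries, by little in adenosine 1 and control 2, and adenosine 2 had 14 and 4 Pdgfb UMIs in the 2 kinds of cell. Osm was also higher in the Arg1 cells of each library, in adenosine 2 from 8 and 1 UMIs. Igf1 had no common order. It was 66.6 and 0 CPM in the Arg1 cells of adenosine 1 and 2 and 65.5 and 28.6 CPM in those of control 1 and 2. Without Arg1 it was 119 and 15.1 CPM in the adenosine libraries and 59.0 and 11.5 CPM in the control libraries.

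**Figure D5:**
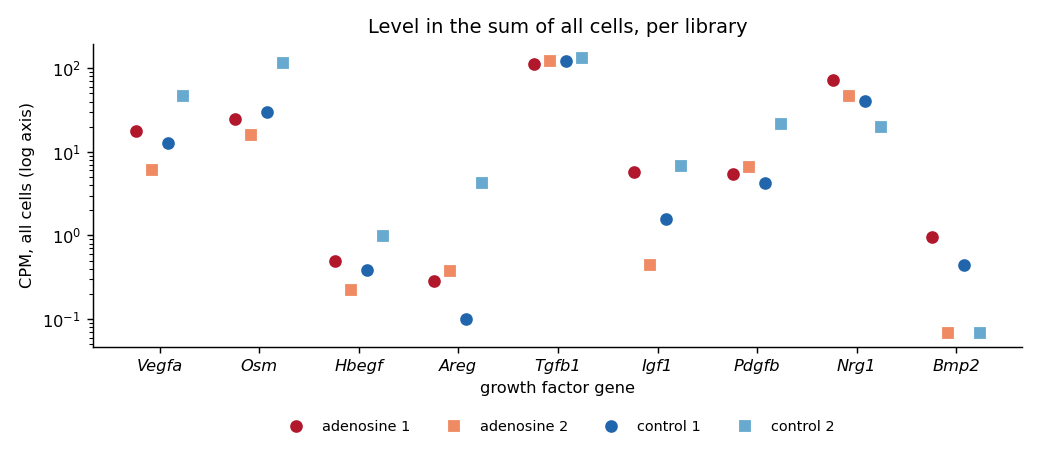
Level of the 9 genes in the sum of all cells, in CPM on a log axis; each point is 1 library, adenosine in red tones left of control in blue. Control 2 is the highest point for Vegfa, Osm, Hbegf, Areg, Tgfb1, Igf1 and Pdgfb, and Nrg1 has both adenosine points above both control points.

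The test of adenosine against control gave no call for any of the 9 genes. In all cells, edgeR's quasi-likelihood test called 0 of 16379 genes (0%), with 448 at an unadjusted p under 0.05, and DESeq2 called 18. In neutrophils it called 0 of 12277 (323 unadjusted, DESeq2 72), in monocyte-macrophages 0 of 12130 (158 and 2), in B cells 0 of 10137 (314 and 4) and in dendritic cells 0 of 9727 (174 and 3). All 9 members passed the filter on low counts in all cells, 4 did in neutrophils, 7 in monocyte-macrophages, 3 in B cells and 4 in dendritic cells. Osm had the lowest p of the 9 in all cells, with a log2 change of -2.09 (SE 0.77, n = 2 libraries each, unadjusted p = 0.0434, adjusted p = 0.860 in edgeR). Without control 2 that change was -0.63. In neutrophils Osm had 49.5 and 37.2 CPM in adenosine 1 and 2, against 55.2 and 186 CPM in control 1 and 2, a log2 change of -1.76 (SE 0.72, adjusted p = 0.836 in edgeR), and -0.37 without control 2. Both adenosine libraries lay below both control libraries for 9.77% of genes there. In monocyte-macrophages Osm had 8.11 and 5.45 CPM in adenosine 1 and 2, against 10.1 and 43.3 CPM in control 1 and 2. The adenosine 2 value lay within the B-cell range read as background above, and the adenosine 1 value just over it. The log2 change was -2.07 (SE 0.73, adjusted p = 0.999 in edgeR) and -0.59 without control 2. Tgfb1 also lay apart in that class, by a small distance, with 192 and 198 CPM in adenosine 1 and 2 against 202 and 203 CPM in control 1 and 2, as 7.98% of genes did in that direction. In B cells Tgfb1 had 125 and 175 CPM in adenosine 1 and 2, against 184 and 192 CPM in control 1 and 2. B-cell Vegfa had 3.75 and 3.03 CPM in adenosine 1 and 2, against 11.3 and 5.41 CPM in control 1 and 2, from 6, 9, 25 and 2 UMIs. The share of genes with the same pattern in B cells was 15.3%.

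Vegfa had the widest fitted change among the commonly detected members, at -2.79 on the log2 scale (SE 1.56, adjusted p = 0.999 in edgeR) in monocyte-macrophages. Its level there was 12.6 and 0.51 CPM in adenosine 1 and 2, against 6.35 and 74.7 CPM in control 1 and 2. Adenosine 1 exceeded control 1, so the groups overlapped, and without control 2 the change was -0.03. Of the alternatives run, it passed the threshold only with a crossed replicate block, added after the data were seen, which pairs adenosine 1 with control 2 and adenosine 2 with control 1 (-3.01, SE 0.48, adjusted p = 0.000348 in edgeR). In neutrophils the Vegfa change was -0.67 (SE 0.53, adjusted p = 0.836 in edgeR), and 0.06 without control 2. For Pdgfb in all cells it was -1.37 (SE 0.87, adjusted p = 0.860 in edgeR), and 0.44 without control 2. Nrg1 kept its direction in all cells, with 0.82 (SE 0.38, adjusted p = 0.860 in edgeR) from 4 libraries and 0.46 without control 2. With a block for each library, the change in monocyte-macrophages minus that in neutrophils was tested, and edgeR called 0 of 13421 genes (197 at an unadjusted p under 0.05). It was 0.74 for Nrg1 (SE 0.39), -2.11 for Vegfa (SE 1.40), -0.31 for Osm (SE 0.33) and 0.32 for Tgfb1 (SE 0.46), with adjusted p-values of 0.880 for the first 3 and 0.885 for Tgfb1. The Vegfa value was -4.54 without adenosine 1, -0.68 without adenosine 2, -2.93 without control 1 and -0.52 without control 2, and the Tgfb1 value passed without control 1 (0.86, adjusted p = 0.0295 in edgeR).

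Other gene groups were also high in control 2. The summed level of 9 hypoxia markers in neutrophils, genes of glucose uptake and glycolysis among them, was 599 and 531 CPM in adenosine 1 and 2, against 503 and 1811 CPM in control 1 and 2. In monocyte-macrophages it was 676 and 546 CPM in adenosine 1 and 2, against 403 and 1532 CPM in control 1 and 2, and the immediate-early sum there was 1305 and 1351 CPM in adenosine 1 and 2 against 1076 and 2562 CPM in control 1 and 2. Their part in the growth factor levels was not tested. Among the hypoxia markers, Bnip3 had 23.9 and 14.3 CPM in all cells of adenosine 1 and 2, against 17.9 and 153 CPM in control 1 and 2. Its log2 change was -2.46, against -0.81 for Pgk1, -0.79 for Ldha and -0.45 for Ndrg1. In monocyte-macrophages Ndrg1 went the other way, with 99.2 and 67.9 CPM in adenosine 1 and 2, against 52.9 and 51.4 CPM in control 1 and 2. Both adenosine libraries were higher there, as in 12.3% of the 12130 genes tested in that class. None of 9 hypoxia markers and none of 11 immediate-early genes was called in all cells by edgeR, with 0 of either at an unadjusted p under 0.05 and median log2 changes of -1.50 and -1.58, against 0.05 over all genes tested.

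Receptors of these growth factors lay largely outside the neutrophils for some ligands and inside them for others. UMIs were summed over all 31330 cells, and counts are compared between classes for 1 gene at a time. Osmr, the specific chain of the oncostatin M receptor, had 59 UMIs in all, and 54 of them lay in the 42 mesenchymal cells. Pdgfra had 52 of 55 UMIs there and Erbb2 had 9 of 11. Kdr, the main VEGF receptor of endothelium, had 149 of 261 there. Flt1, also a VEGF receptor, had 282 of 1869 there and 938 in classical monocytes. Whether endothelial cells are among the cells named mesenchymal was not tested. Egfr had 311 of 577 UMIs in plasmacytoid dendritic cells and 184 in mesenchymal cells. Pdgfrb instead had 192 of 277 UMIs in granulocyte-monocyte progenitors and 49 in mesenchymal cells. Erbb4, a neuregulin receptor, had 10 UMIs in all cells, and Erbb3 had 271, most of them in progenitors, monocytes and dendritic cells. Igf1r lay mainly in neutrophils, the most numerous cells, with 67699 of 83016 UMIs in immature and mature neutrophils. Its level in mature neutrophils was 1032 and 629 CPM in adenosine 1 and 2, against 850 and 985 CPM in control 1 and 2. Tgfbr2 stood at 280 and 214 CPM in T or NK cells of adenosine 1 and 2 and at 239 and 258 CPM in those of control 1 and 2.

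Of 27 receptor genes, 25 were tested in all cells and edgeR called 0 (1 at an unadjusted p under 0.05), with a median log2 change of -0.42 against 0.05 over all genes. The 4 with the highest level in monocyte-macrophages were Nrp1, Bmpr2, Insr and Tgfbr1. Nrp1, a co-receptor for VEGF, had 177 and 279 CPM in monocyte-macrophages of adenosine 1 and 2, against 125 and 81.4 CPM in control 1 and 2, with a log2 change of 1.13 (SE 0.40, unadjusted p = 0.0323, adjusted p = 0.999 in edgeR). Both adenosine libraries were higher, as in 2 of the 20 receptors tested in that class (1 had both lower) and in 12.3% of its 12130 genes. Of 28 related ligands, 20 were tested and 0 called (0 unadjusted), with a median of 0.22. Nrg2, the paralog of Nrg1, had 64.2 and 64.1 CPM in all cells of adenosine 1 and 2, against 42.2 and 3.07 CPM in control 1 and 2. Both adenosine libraries were higher, as in 5 of the 20 ligands tested (0 had both lower) and in 27.4% of the 16379 genes tested. Hgf, hepatocyte growth factor, had 37.6 and 19.1 CPM in adenosine 1 and 2, against 30.8 and 11.3 CPM in control 1 and 2. Pdgfa went the other way, with 2.47 and 0.62 CPM in adenosine 1 and 2, against 0.74 and 9.63 CPM in control 1 and 2. The log2 changes were 1.42 for Nrg2, 0.28 for Hgf, -2.07 for Pdgfa and 0.09 for Vegfc. Of 31 genes for release, activation and inhibition, 24 were tested and 0 called (1 unadjusted), with a median of -0.71. Thbs1, thrombospondin 1, which activates latent TGF-beta, had 58.6 and 12.9 CPM in all cells of adenosine 1 and 2, against 187 and 1606 CPM in control 1 and 2. Both adenosine libraries lay below both control libraries, as in 3 of the 24 genes of the list (1 had both above) and in 10.1% of the 16379 genes tested. The log2 change was -4.97 (SE 1.42, adjusted p = 0.860 in edgeR). Nrros and Itgav, which anchor and activate latent TGF-beta, and Adam10, a sheddase, had changes between -0.93 and -0.19.

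The genes most like each member were found over 35 class-by-library sums of 13 classes with at least 50 cells, among 8607 genes with a mean of at least 10 CPM. The sums share libraries and cell classes, so Pearson's r is a description. Igf1 was nearest to Mertk, a receptor for dying cells (r = 0.94), and then to Arg1 (0.90) and Ms4a7 (0.89), 3 of the 10 macrophage markers. Pdgfb was nearest to Tnip3 (0.91) and Tnfrsf9 (0.82). Nrg1 was nearest to Tfec, a transcription factor gene of myeloid cells (0.90), followed by C1galt1c1 (0.86) and Guca1a (0.85). Osm was nearest to Ifrd1 (0.87), Riok3 (0.86) and Midn (0.85), and Tgfb1 to Morf4l1 (0.89), Szrd1 (0.87) and Cic (0.86). Vegfa had weaker neighbours in Rgcc (0.78), Junos (0.76) and Lhfpl2 (0.75). For Hbegf, Areg and Bmp2, with means under 1 CPM over these sums, no neighbour is read.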

How the data were processed

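Viable callus cells, sorted after red cell lysis per the labels' protocols, were captured with 10x 3' chemistry, and the authors deposited raw UMI counts, whole numbers for each gene in each barcode. The submitters' processing notes name Cell Ranger 7.0.0, bcl2fastq and build mm10. The gene annotation used and whether intronic reads were counted are not given in the labels or files. All barcodes held at least 500 UMIs.

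Cells with under 200 genes or at least 10% mitochondrial UMIs were removed. Doublets were scored with Scrublet in scanpy 1.11.5 (Python 3.11.15), and the highest-scoring 0.8% per 1000 barcodes were removed, since the automatic threshold marked 0% to 1.95%. Cells were clustered from 2000 variable genes, 30 principal components and 15 neighbours (leidenalg 0.10.2, resolution 1), leaving out the 9 genes and the pathway lists. A cluster was named from 20 marker lists where 3 markers were raised by 1 log2 unit over the mean of clusters (pseudocount 10 CPM), the cluster had 20 cells and the next list scored lower by 0.25 or more. A list score of at least 2 was added after the clusters were seen. It leaves the cluster with Gata3 and Il1rl1 (21 and 26 cells in adenosine 1 and 2, 38 and 0 in control 1 and 2) unnamed.

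For each library, counts were added up for the whole sample and for any class that had 50 or more cells in all 4. edgeR 4.0.16 in R 4.3.3 (filterByExpr, TMM, quasi-likelihood test, two-sided) was applied, with Benjamini-Hochberg adjustment over all genes tested and a threshold of 0.05. A floor of 3 UMIs was used for detection. These steps were run on simulated data holding known changes. The simulated spread between libraries was below that of all cells and neutrophils here, and no simulated library stood apart, so that run cannot speak for these data. Alternatives were DESeq2 1.42.0, library-size scaling, no filter, doublets kept, a replicate block, a per-cell marker gate and leaving out each library. The gate (mean ln(1 + counts per 10000) of the leading list at least 0.5) was the last of 3 definitions, chosen for its overlap with the clusters before its tests were seen, so it is not an independent check. Only 2 pairs of libraries share a number, and deviations of same-numbered libraries correlated between -0.15 and 0.20, so the numbers were not taken as pairs. The text names all 9 genes, the 4 genes of each pathway list with the highest level in monocyte-macrophages, and the 3 genes most like each of the 9, of which 1 is not reported here. Receptors described by class and the single cells, clusters and divisions said to be chosen after the values were seen fall outside that rule. Members and lists were chosen with earlier results of these data known.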

Additional observations from a re-analysis of the deposited data

Results flagged for a closer look

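Nrg1 had changes of opposite sign in 2 classes. Its log2 change was 0.97 in monocyte-macrophages, with both adenosine libraries above both control libraries, and -1.62 in dendritic cells, with both below. The first pattern was found in 12.3% of genes tested in monocyte-macrophages and the second in 8.28% of those tested in dendritic cells. The dendritic values rest on 4 and 10 UMIs in adenosine 1 and 2 and 30 and 35 in control 1 and 2. The dendritic value was -0.75 with cells chosen 1 by 1 from their markers, -0.91 with doublets kept, and between -2.89 and -0.79 with 1 library left out. The difference between these 2 changes was not tested, and neither passed the adjusted threshold in edgeR.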

How the results depend on the processing

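The count of 0 called genes held in all cells with library-size scaling, no filter, doublets kept and the replicate block, and DESeq2 called 18. In the classes, DESeq2 called 72 genes in neutrophils, 2 in monocyte-macrophages, 4 in B cells and 3 in dendritic cells, and no filter gave 639, 26, 84 and 65 in the same order. The replicate block called 0 genes in each of the 5 comparisons. A crossed replicate block, added after the data were seen, called 35 genes in monocyte-macrophages, 12 in B cells and 7 in dendritic cells. Leaving out 1 library gave 0 to 0 genes in all cells, 0 to 4258 in neutrophils, 0 to 50 in monocyte-macrophages, 10 to 113 in B cells, 0 to 101 in dendritic cells and 0 to 3384 for the difference of the change between monocyte-macrophages and neutrophils, the last added later. The lone library left in a group is then assumed to vary like the other group, and the cause was not tested. The counts of 4258, 50, 101 and 3384 came without control 1.

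Of 188 alternative values for 31 log2 changes of the 9 genes, 181 kept direction and side of the threshold, 5 reversed and 2 passed it. Those in B cells and dendritic cells were added after the data were seen. The 5 were Igf1 in monocyte-macrophages, at -0.36 with the replicate block, -0.38 with the crossed block and -0.51 with the per-cell gate, Osm in B cells, at 0.011 with doublets kept, and Tgfb1 in dendritic cells, at 0.034 with library-size scaling. The 2 were Osm in neutrophils with no filter (-1.70, adjusted p = 0.0370 in edgeR; 0.0032 to 1 over its alternatives) and Vegfa in monocyte-macrophages with the crossed block (-3.01, adjusted p = 0.000348 in edgeR). Of 122 values with 1 library left out, 18 reversed and 5 passed. The 5, all without control 1, were Osm (-2.45, adjusted p = 0.0032), Vegfa (-1.15, 0.0408) and Tgfb1 (-1.04, 0.0309) in neutrophils, Osm in monocyte-macrophages (-2.82, 0.0410), and Tgfb1 for the difference of the change (0.86, 0.0295), each in edgeR. The ranges of those that reversed were -4.01 to 1.64 for Areg, -3.41 to 0.80 for Igf1, -2.20 to 0.44 for Pdgfb and -1.93 to 2.45 for Bmp2 in all cells. In neutrophils they were -1.15 to 0.063 for Vegfa, -1.04 to 0.16 for Tgfb1 and -0.045 to 0.48 for Nrg1, in monocyte-macrophages -2.45 to 1.13 for Igf1 and -2.19 to 0.29 for Pdgfb, in B cells -0.31 to 0.11 for Osm, in dendritic cells -2.0 to 0.034 for Osm and -0.26 to 0.12 for Tgfb1, and for the difference of the change -0.25 to 0.86 for Tgfb1.

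Depth limits Hbegf, Areg and Bmp2, which had at most 125 UMIs in any library.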
